A study of Mus musculus with 8 samples.

Results

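The somatic and testis isoforms of the glycolysis enzymes, together with those of lactate dehydrogenase and pyruvate dehydrogenase, were followed through meiotic prophase in mouse spermatocytes with and without Cnot4. The members were the 10 genes named Gapdh, Gapdhs, Pgk1, Pgk2, Ldha, Ldhb, Ldhc, Pdha1, Pdha2 and Hk1, taken by symbol from 23235 gene symbols. All 10 had a row in each of the 8 libraries, and 4 of them (Gapdhs, Pgk2, Ldhc and Pdha2) are testis isoforms while 6 are somatic.

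The samples were spermatocytes sorted by flow cytometry from the testes of 6-week-old C57BL/6 males into a leptotene and zygotene fraction (LZ) and a pachytene and diplotene fraction (PD). Each fraction was taken from wild type (WT) males and from Cnot4 fl/fl males carrying Stra8-Cre, termed Cnot4-null, in which Cre is made in germ cells and removes an exon of Cnot4, so that somatic cells of these testes keep the gene. There were 4 groups of 2 libraries, WT LZ, Cnot4-null LZ, WT PD and Cnot4-null PD, with no treatment in any group. Values are FPKM, that is fragments scaled to the length of a transcript and to the mapped fragments of a library, so levels can be compared between genes. The number of animals behind each library was not given in the sources used here, so p-values measure the spread between these libraries.

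Most cells split glucose with enzymes encoded by widely expressed genes, and male germ cells switch on a separate set of isoforms during meiosis and spermiogenesis. Several of the testis isoforms are intronless retrocopies that sit on autosomes, and their source genes Pgk1 and Pdha1 lie on the X chromosome, which is silenced in pachytene spermatocytes. Sperm rely on these isoforms for ATP and motility, and Ldhc and Pgk2 are classical markers of meiotic and later male germ cells, whereas Gapdhs is known as a spermatid enzyme.

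The labels were first checked against the targeted gene and stage markers. Cnot4 had 36.0 and 34.9 FPKM at LZ and 76.6 and 73.1 at PD in WT, against 43.2 and 34.6 at LZ and 65.9 and 53.5 at PD in Cnot4-null. The Cnot4 value therefore did not separate the genotypes at LZ and was lower at PD by less than the difference between stages, and a gene-level value cannot show the loss of an exon, so the genotypes are those of the labels. The 8 PD markers (most abundant, Hspa2) summed to 87.7 and 83.4 FPKM at LZ and 1832 and 1820 at PD in WT, against 95.5 and 55.2 at LZ and 989 and 477 at PD in Cnot4-null. By these sums, PD was above LZ in both genotypes, as the stage labels say. They do not show which other cells the Cnot4-null PD libraries held. The PD marker sums at PD were lower in Cnot4-null, where 4 of the 8 fell at PD by limma, beside 11.5% of all genes called lower. That count was 2 without either WT PD library or without Cnot4-null PD replicate 2, and 6 without Cnot4-null PD replicate 1. The 7 LZ markers with a row (most abundant, Sycp3) summed to 1674 and 1938 FPKM at LZ and 1100 and 1138 at PD in WT, against 3541 and 2009 at LZ and 969 and 607 at PD in Cnot4-null. Against WT PD, the libraries with the label Cnot4-null PD had 4 of the 7 higher and 2 lower by limma, beside 41.6% and 11.5% of all genes. These counts became 2 and 0 without WT PD replicate 2, 3 and 0 without WT PD replicate 1 or Cnot4-null PD replicate 2, and 4 and 1 without either WT LZ library.

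Markers of other cell types stood apart in libraries with the label Cnot4-null PD, and their values stand here before the members because the members' genotype differences at PD rest on these libraries. All 8 spermatid markers were higher there than in WT PD by limma, beside 41.6% of all genes, though not all 8 with each library left out in turn. The list summed to 1847 and 1540 FPKM at LZ and 425 and 273 at PD in WT, against 4066 and 725 at LZ and 16024 and 7551 at PD in Cnot4-null. Prm1, a sperm chromatin protamine and the most abundant of them, had 176 and 74.8 FPKM in WT PD against 7592 and 2949 in Cnot4-null PD. All 8 Leydig cell markers were higher too, with sums of 17.2 and 9.89 FPKM at LZ and 116 and 7.07 at PD in WT, against 10.8 and 19.0 at LZ and 10082 and 22306 at PD in Cnot4-null. Most of the Leydig cell sum was Insl3, a peptide hormone of these cells, at 9669 and 21607 FPKM in Cnot4-null PD against 104 and 4.90 in WT PD. Spermatid sums were higher in replicate 1 of Cnot4-null PD, and Leydig cell sums were higher in replicate 2.

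All 8 spermatogonial markers (most abundant, Dmrt1) were higher in Cnot4-null PD, beside 41.6% of all genes, though not all 8 with each library left out in turn. Their sums were 328 and 277 FPKM at LZ and 9.85 and 6.95 at PD in WT, against 237 and 320 at LZ and 141 and 238 at PD in Cnot4-null. All 8 peritubular and matrix markers (most abundant, Dcn) were higher, again not all 8 with each library left out in turn. The matrix sums were 21.9 and 20.1 FPKM at LZ and 23.9 and 6.38 at PD in WT, against 7.66 and 6.88 at LZ and 415 and 1021 at PD in Cnot4-null. Of 7 Sertoli cell markers with a row, 3 of 5 tested were higher, beside 41.6% of all genes, and Clu was the most abundant of the list. The Sertoli cell sums were 65.0 and 56.9 FPKM at LZ and 8.96 and 16.2 at PD in WT, against 5.80 and 9.08 at LZ and 100 and 208 at PD in Cnot4-null. Each of these 3 lists thus had higher sums in Cnot4-null PD than in WT PD without overlap, and the Sertoli cell count was 1 without WT PD replicate 2. Of 7 macrophage markers, 3 were higher (Cd68, Csf1r and C1qa), a share near the 41.6% of all genes called higher, while Lyz2, the most abundant, was not called (limma, adjusted p = 0.0595). The macrophage list had sums of 37.5 and 1.03 FPKM at LZ and 3.25 and 2.96 at PD in WT, against 12.4 and 5.12 at LZ and 27.2 and 116 at PD in Cnot4-null. Of 8 endothelial markers, 3 of 4 tested were higher, beside the same 41.6% of all genes, and Egfl7 was the most abundant of the list. The endothelial sums were 21.0 and 25.4 FPKM at LZ and 0.553 and 0.288 at PD in WT, against 24.8 and 21.5 at LZ and 11.9 and 20.1 at PD in Cnot4-null. Of the red blood cell markers, Hba-a1, Hba-a2, Hbb-b1 and Hbb-b2 were listed at 0 in every library, and Alas2 did not pass 0.936 FPKM in any. The macrophage count was 5 without either WT LZ library, 1 without either Cnot4-null LZ library or Cnot4-null PD replicate 2, and 0 without either WT PD library, and the endothelial count was 1 without WT PD replicate 2 and 2 without replicate 1. The Sertoli cell count was 2 without WT PD replicate 1. The filter let some of the markers called higher into the test only through the Cnot4-null PD libraries, so their calls depended on the group in which they were high. These were Hsd3b1, Hsd3b6, Lhcgr and Hsd17b3 of the Leydig cell list, Myh11, Col1a2 and Col3a1 of the matrix list, Gata1 of the Sertoli cell list, Csf1r of the macrophage list, and Cdh5 and Flt1 of the endothelial list. The part of these cell types in the members' differences was not tested. In bulk libraries a different number of cells of a type and a different amount of RNA per cell cannot be told apart.

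**Figure D1:**
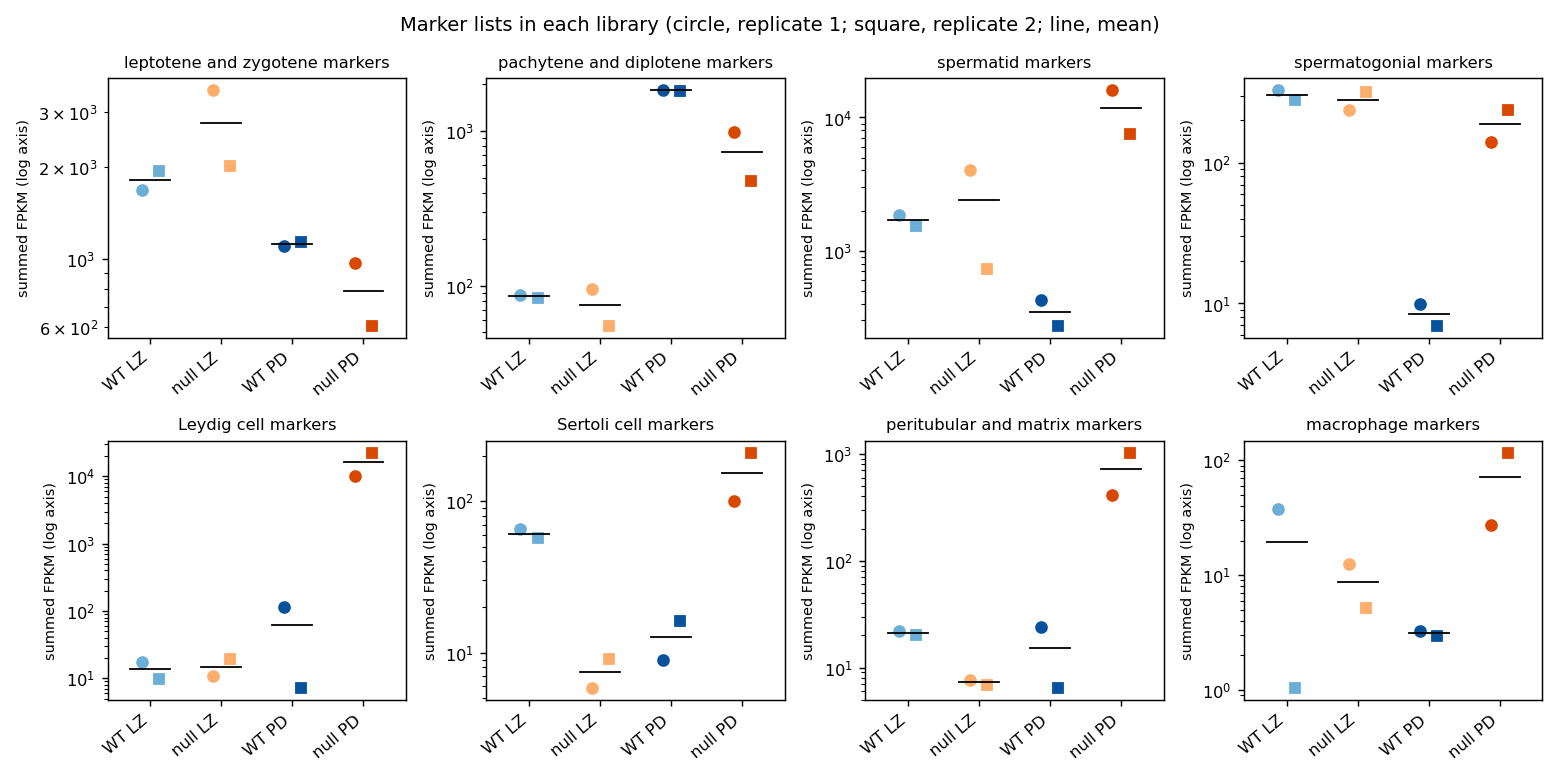
Summed FPKM (log axis) of 8 marker lists in each of the 8 libraries, by group, with replicate 1 as a circle, replicate 2 as a square and the mean as a line. The Cnot4-null PD libraries (null PD) hold the highest spermatid sums, 16024 and 7551, and the highest Leydig cell sums, 10082 and 22306.

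Hexokinase 1, the enzyme of the first step of glycolysis and encoded by Hk1 (chr10:61731603-61842656 in mm9, minus strand), had its highest levels in Cnot4-null PD. Hk1 had 4.29 and 2.97 FPKM at LZ and 9.99 and 9.45 at PD in WT, against 2.85 and 3.70 at LZ and 23.4 and 40.6 at PD in Cnot4-null. The LZ groups overlapped, WT PD was above both, and Cnot4-null PD was above every other library. On the log2(FPKM + 1) scale, which understates changes of low genes, Hk1 rose by 1.23 ± 0.32 (SE) from LZ to PD in WT (limma, adjusted p = 0.0123). In Cnot4-null it rose by 2.90 ± 0.32 (limma, adjusted p = 0.000668). The level in Cnot4-null PD was 1.57 ± 0.32 above that in WT PD (limma, adjusted p = 0.00608). That genotype difference was 0.22 (limma, adjusted p = 0.567) after rescaling each library to the same median and 1.10 (limma, adjusted p = 0.0668) after quantile normalization, and without WT PD replicate 2 it had an adjusted p of 0.0531 at a change of 1.53. The rise in WT had an adjusted p of 0.0725 without WT LZ replicate 2 (change 1.02), 0.0767 without WT PD replicate 1 (change 1.19) and 0.0646 without WT PD replicate 2 (change 1.26), and was 2.05 (adjusted p = 0.000965) after rescaling to the same median.

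Glyceraldehyde 3-phosphate dehydrogenase is encoded by Gapdh in somatic cells (chr6:125111871-125116485, minus strand) and by Gapdhs in spermatids (chr7:31514799-31528700, minus strand). Gapdh had 211 and 237 FPKM at LZ and 9.22 and 8.22 at PD in WT, against 178 and 196 at LZ and 89.3 and 120 at PD in Cnot4-null. WT PD was far below every other group, and the Cnot4-null PD libraries stood between it and the LZ libraries without overlap. Gapdh fell by 4.53 ± 0.21 on the log2 scale from LZ to PD in WT (limma, adjusted p = 1.66e-05), a 25.7-fold difference of mean FPKM, and fell by 0.84 ± 0.21 in Cnot4-null (limma, adjusted p = 0.0139). Cnot4-null PD was 3.43 ± 0.21 above WT PD (limma, adjusted p = 0.000108), or 2.07 after rescaling to the same median, while at LZ the genotypes differed by -0.26 ± 0.21 (limma, adjusted p = 0.952). Many processed pseudogenes resemble Gapdh, and only uniquely mapped reads were kept, so its level is less certain than that of a gene without copies. The smaller decrease in Cnot4-null had an adjusted p of 0.0519 without Cnot4-null LZ replicate 1 (change -0.91), 0.0760 without Cnot4-null LZ replicate 2 (change -0.78) and 0.0750 with only the libraries compared in the fit, and was -1.43 (adjusted p = 0.00144) after rescaling to the same median.

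Gapdhs did not follow the other testis isoforms. It had 5.59 and 14.0 FPKM at LZ and 8.17 and 6.32 at PD in WT, against 27.2 and 8.86 at LZ and 168 and 62.5 at PD in Cnot4-null. All 6 libraries outside Cnot4-null PD were between 5.59 and 27.2 FPKM, and both Cnot4-null PD libraries were above them. WT LZ overlapped both WT PD and Cnot4-null LZ, while Cnot4-null LZ was above WT PD. From LZ to PD, Gapdhs changed by -0.28 ± 0.66 in WT (limma, adjusted p = 0.770), and this sign turned to 0.22 after quantile normalization, 0.52 after rescaling to the same median and 0.31 without WT LZ replicate 2. In Cnot4-null it rose by 2.63 ± 0.66 (limma, adjusted p = 0.0152), which became 1.88 (adjusted p = 0.104) without Cnot4-null LZ replicate 2 and 1.93 (adjusted p = 0.112) without Cnot4-null PD replicate 1. Its adjusted p was 0.0687 with no filter on low values and 0.0627 with only the libraries compared in the fit. Cnot4-null PD was above WT PD by 3.66 ± 0.66 (limma, adjusted p = 0.00387), or 15.9-fold in mean FPKM. The spermatid sum was also higher in replicate 1 than in replicate 2 of Cnot4-null PD, as were 6 of the 8 markers, whereas Tssk6 (35.8 and 63.7 FPKM) and Odf1 (184 and 364) were higher in replicate 2. The PD marker sum had the same order in these libraries (989 and 477 FPKM). The part of spermatid RNA in the Gapdhs level was not tested.

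Phosphoglycerate kinase makes ATP in the step after Gapdh, from the X-linked Pgk1 (chrX:103382439-103399038, plus strand) or from Pgk2, its autosomal retrocopy (chr17:40343963-40345554, minus strand). Pgk1 had 30.5 and 32.7 FPKM at LZ and 2.25 and 2.72 at PD in WT, against 35.4 and 39.3 at LZ and 16.8 and 23.0 at PD in Cnot4-null. As for Gapdh, WT PD was lowest and Cnot4-null PD lay between WT PD and LZ. Pgk1 fell by 3.23 ± 0.22 from LZ to PD in WT (limma, adjusted p = 3.7e-05) and fell by 0.89 ± 0.22 in Cnot4-null (limma, adjusted p = 0.0154), and Cnot4-null PD was 2.57 ± 0.22 above WT PD (limma, adjusted p = 0.000262). This genotype difference was 1.37 after rescaling to the same median and 1.68 with quantile normalization, and was called in both. The decrease in Cnot4-null had an adjusted p of 0.0537 without Cnot4-null LZ replicate 1 (change -0.96), 0.0792 without Cnot4-null LZ replicate 2 (change -0.82) and 0.0735 with only the libraries compared in the fit, and was -1.45 (adjusted p = 0.0019) after rescaling to the same median.

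Pgk2 had 5.04 and 13.9 FPKM at LZ and 265 and 255 at PD in WT, against 16.1 and 6.89 at LZ and 196 and 84.0 at PD in Cnot4-null. Both PD groups were above all LZ libraries, and the Cnot4-null PD libraries were below WT PD but differed 2.33-fold from each other. Pgk2 rose by 4.78 ± 0.58 from LZ to PD in WT (limma, adjusted p = 0.000322) and by 3.48 ± 0.58 in Cnot4-null (limma, adjusted p = 0.00300). The genotype difference at PD was -1.01 ± 0.58 and did not pass the test (limma, adjusted p = 0.169), although after rescaling to the same median it was -2.44 (limma, adjusted p = 0.00699). With quantile normalization it was -0.67 (limma, adjusted p = 0.303), and it ran from -1.62 without Cnot4-null PD replicate 1 to -0.41 without replicate 2.

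The promoters of Pgk1 and Pgk2 are shown because these copies of a kinase moved in opposite directions between stages. The sequences are from RefSeq on GRCm38.p6, 250 bases before to 50 bases after the start, on the strand of the gene, at chrX:106186850-106187149 for Pgk1 and chr17:40208560-40208859 for Pgk2, and capitals mark GC boxes (GGGCGG) and CCAAT boxes (CCAAT), searched on both strands.
Pgk1: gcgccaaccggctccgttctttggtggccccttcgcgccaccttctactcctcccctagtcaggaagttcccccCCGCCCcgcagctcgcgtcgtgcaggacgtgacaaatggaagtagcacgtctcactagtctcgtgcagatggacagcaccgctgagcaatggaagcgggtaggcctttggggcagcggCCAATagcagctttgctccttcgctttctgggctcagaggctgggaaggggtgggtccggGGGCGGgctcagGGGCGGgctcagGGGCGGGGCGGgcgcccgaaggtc
Pgk2: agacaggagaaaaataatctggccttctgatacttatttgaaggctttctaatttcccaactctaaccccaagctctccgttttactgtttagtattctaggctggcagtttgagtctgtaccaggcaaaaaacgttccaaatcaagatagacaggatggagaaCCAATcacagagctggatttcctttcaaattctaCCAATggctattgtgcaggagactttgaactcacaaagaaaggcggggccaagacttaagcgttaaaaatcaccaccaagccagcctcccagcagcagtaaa
The Pgk1 promoter held 5 GC boxes, a CCAAT box 58 bases before the start and 24 CG dinucleotides, while that of Pgk2 held no GC box, CCAAT boxes 86 and 52 bases before the start, and 4 CG dinucleotides. A GC box was in 35.7% and a CCAAT box in 37.4% of 32851 promoters of the same length, and their median was 7 CG dinucleotides. These matches are descriptions of the letters only.

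Lactate dehydrogenase interconverts pyruvate and lactate, with subunits from Ldha, Ldhb and the testis gene Ldhc. Ldha (chr7:54096845-54110997, plus strand) and Ldhc (chr7:54116573-54133512, plus strand) are neighbours, and 5575 bases separate the end of Ldha from the start of Ldhc. Ldhc had 147 and 254 FPKM at LZ and 10594 and 9725 at PD in WT, against 146 and 35.1 at LZ and 4585 and 1474 at PD in Cnot4-null. By its mean it ranked 4 among all genes in WT PD, 19 in Cnot4-null PD, 569 and 1230 in the LZ groups of WT and Cnot4-null. It was the most abundant member at PD in both genotypes, and at LZ its groups almost touched at 147 and 146 FPKM. Ldhc rose by 5.71 ± 0.74 from LZ to PD in WT (limma, adjusted p = 0.000453) and by 5.16 ± 0.74 in Cnot4-null (limma, adjusted p = 0.00177). The Cnot4-null PD libraries were below WT PD by a change of -1.96 ± 0.74, just outside the threshold (limma, adjusted p = 0.0568). That difference passed with an adjusted p of 0.0402 without Cnot4-null LZ replicate 1, 0.0410 without Cnot4-null LZ replicate 2, 0.0489 without Cnot4-null PD replicate 1 (change -2.78), 0.0459 with the replicate number as a replicate block and 0.00483 after rescaling to the same median (change -3.40). It was weaker at -1.58 (adjusted p = 0.0811) with quantile normalization and at -1.15 without Cnot4-null PD replicate 2.

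Ldha, the subunit typical of muscle, was listed with the somatic isoforms but behaved like Ldhc. It had 19.2 and 29.4 FPKM at LZ and 997 and 1130 at PD in WT, against 5.86 and 7.05 at LZ and 400 and 223 at PD in Cnot4-null. The groups did not overlap, PD was above LZ in both genotypes, and Cnot4-null was below WT at both stages. Ldha rose by 5.42 ± 0.32 from LZ to PD in WT (limma, adjusted p = 2.51e-05) and by 5.33 ± 0.32 in Cnot4-null (limma, adjusted p = 0.000253). It fell by 1.83 ± 0.32 with genotype at PD (limma, adjusted p = 0.00361), or -3.26 as a change after rescaling to the same median, and the difference at LZ was -1.74 ± 0.32 without passing the test (limma, adjusted p = 0.356).

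Ldhb, the subunit typical of heart (chr6:142438769-142456477, minus strand), had 16.6 and 18.8 FPKM at LZ and 2.48 and 2.70 at PD in WT, against 8.43 and 1.36 at LZ and 33.6 and 47.9 at PD in Cnot4-null. Its direction between stages differed with genotype, since WT PD was below WT LZ and Cnot4-null PD was above every other library. Ldhb fell by 2.38 ± 0.58 in WT (limma, adjusted p = 0.00939) and rose by 3.12 ± 0.58 in Cnot4-null (limma, adjusted p = 0.00467), and Cnot4-null PD was 3.52 ± 0.58 above WT PD (limma, adjusted p = 0.00268). The decrease in WT had an adjusted p of 0.0573 without WT LZ replicate 2 (change -2.30), 0.0561 without WT PD replicate 1 (change -2.34) and 0.0501 without WT PD replicate 2 (change -2.43). As for all 8 matrix markers and the Leydig cell markers other than Star (22.6 and 16.4 FPKM), Ldhb was higher in replicate 2 than in replicate 1 of Cnot4-null PD, and the part of these cells in its level was not tested.

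The promoters of Ldha and Ldhc are shown because these neighbours rose together. They lie at chr7:46845554-46845853 and chr7:46861013-46861312 (GRCm38.p6, plus strand, RefSeq), and each gene has a second start in the table whose window is not shown. Capitals mark GC boxes (GGGCGG), the cyclic AMP response element TGACGTCA and its first 5 letters TGACG, searched on both strands.
Ldha: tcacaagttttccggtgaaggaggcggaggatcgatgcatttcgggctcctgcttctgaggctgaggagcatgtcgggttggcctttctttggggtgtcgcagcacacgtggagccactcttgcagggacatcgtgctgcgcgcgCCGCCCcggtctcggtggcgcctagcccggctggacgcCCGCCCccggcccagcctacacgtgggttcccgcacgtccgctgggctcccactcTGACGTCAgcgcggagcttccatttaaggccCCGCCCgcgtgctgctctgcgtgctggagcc
Ldhc: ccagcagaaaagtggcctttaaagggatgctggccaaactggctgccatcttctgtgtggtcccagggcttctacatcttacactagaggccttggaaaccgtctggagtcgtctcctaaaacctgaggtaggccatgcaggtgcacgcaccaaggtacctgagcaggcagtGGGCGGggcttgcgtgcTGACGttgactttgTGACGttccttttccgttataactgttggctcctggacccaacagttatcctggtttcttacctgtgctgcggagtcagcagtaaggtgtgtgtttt
The full element TGACGTCA was found once among the 14 start-site windows of the members, 12 bases before the start of Ldha, and was present in 1.79% of all 32851 promoters. TGACG, inside or outside the full element, was in 20.8% of all promoters and occurred 61 and 47 bases before the start of Ldhc. The Ldha window had 30 CG dinucleotides and 3 GC boxes, and that of Ldhc had 9 and 1. TATAAA, in 13.6% of all promoters, was found among the members in the window of Pdha2 alone.

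Pyruvate dehydrogenase passes pyruvate to the citric acid cycle, and its alpha subunit comes from the X-linked Pdha1 (chrX:156560141-156576345, minus strand) or from the autosomal retrocopy Pdha2 (chr3:140872968-140875319, minus strand). Pdha1 had 8.58 and 5.87 FPKM at LZ and 0.551 and 0.138 at PD in WT, against 13.4 and 12.6 at LZ and 7.34 and 9.83 at PD in Cnot4-null. WT PD was the lowest group, its libraries stood furthest apart of all members in that group at these low values, and Cnot4-null PD overlapped the range of WT LZ. Pdha1 fell by 2.61 ± 0.30 from LZ to PD in WT (limma, adjusted p = 0.000245), and in Cnot4-null the change was -0.56 ± 0.30 (limma, adjusted p = 0.158). Cnot4-null PD was 2.84 ± 0.30 above WT PD (limma, adjusted p = 0.000436). The change in Cnot4-null passed as -1.06 with quantile normalization (limma, adjusted p = 0.0318) and as -1.08 with libraries rescaled to the same median (limma, adjusted p = 0.0256).

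Pdha2 had 11.9 and 14.0 FPKM at LZ and 193 and 204 at PD in WT, against 17.5 and 14.0 at LZ and 127 and 67.0 at PD in Cnot4-null. Both PD groups were above LZ, and Cnot4-null PD was below WT PD. Pdha2 rose by 3.84 ± 0.31 from LZ to PD in WT (limma, adjusted p = 5.96e-05) and by 2.48 ± 0.31 in Cnot4-null (limma, adjusted p = 0.00105), and fell by 1.10 ± 0.31 with genotype at PD (limma, adjusted p = 0.0207). This last difference had an adjusted p of 0.0902 without WT PD replicate 1 (change -1.14), 0.106 without WT PD replicate 2 (change -1.06), 0.0611 with no filter on low values and 0.0871 with only the libraries compared in the fit, and without Cnot4-null PD replicate 2 the change was -0.64 (adjusted p = 0.0442). It was -2.52 after rescaling to the same median (limma, adjusted p = 0.000611).

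**Figure D2:**
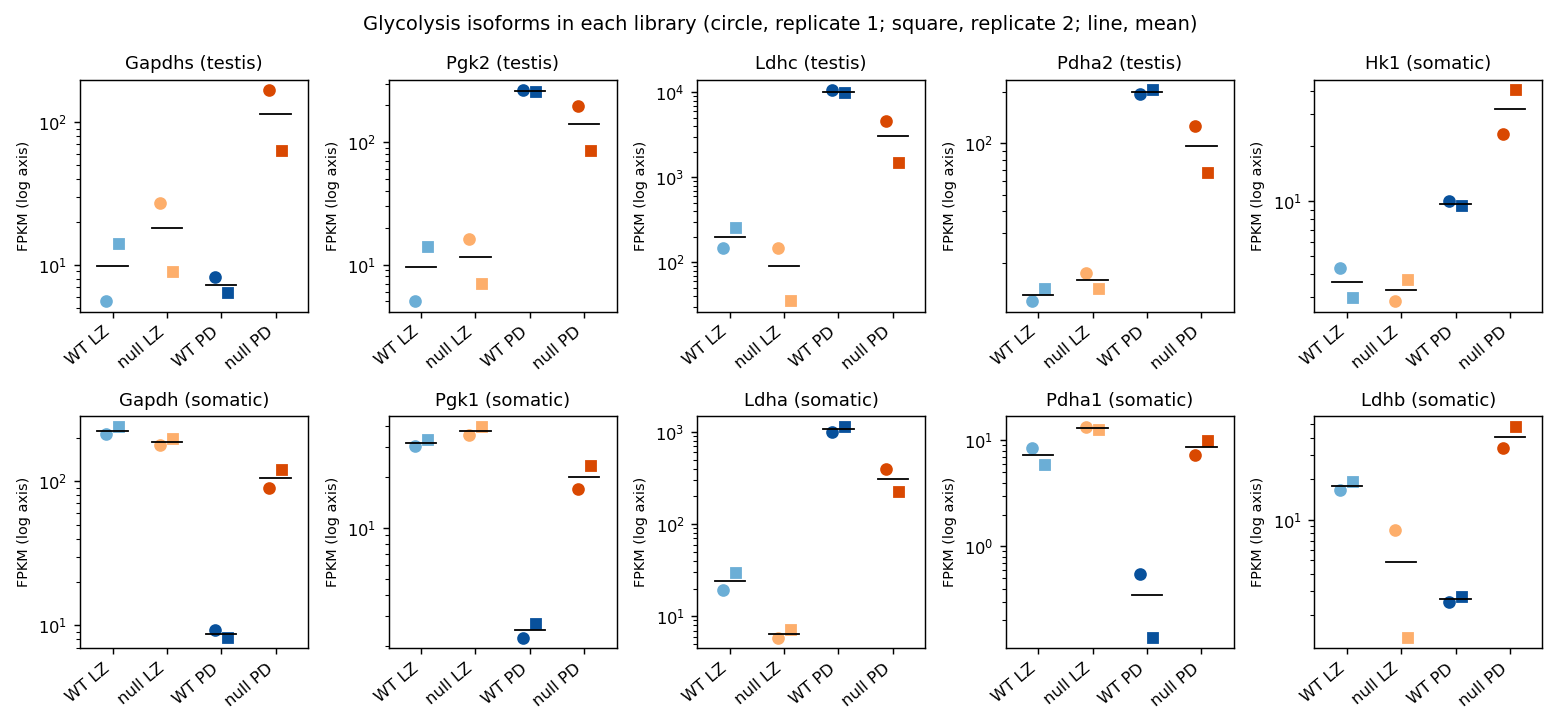
FPKM (log axis) of the 10 members in each library, by group, with replicate 1 as a circle, replicate 2 as a square and the mean as a line. Gapdh, Pgk1 and Pdha1 are lowest in WT PD, Gapdh and Pgk1 are intermediate in Cnot4-null PD (null PD), and Gapdhs, Ldhb and Hk1 are highest in Cnot4-null PD.

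Counted together, 5 of the 10 members were called higher and 4 lower from LZ to PD in WT, beside 21.6% and 36.2% of the 15899 genes tested. The 5 were Pgk2, Ldhc, Pdha2, Ldha and Hk1, and the 4 were Gapdh, Pgk1, Ldhb and Pdha1. All 10 passed the filter of FPKM above 1 in at least 1 library, and Pdha1 passed it through groups other than WT PD. In Cnot4-null, 7 members were called higher and 2 lower from LZ to PD, against 27.8% and 18.2% of all genes tested. The median change of the 4 testis isoforms was 4.31 in WT and 3.06 in Cnot4-null, and that of the 6 somatic isoforms was -2.50 and 1.17, beside medians over all tested genes of -0.32 and 0.19. The somatic 1.17 describes no single member, since Ldha, Ldhb and Hk1 changed by 5.33, 3.12 and 2.90 in Cnot4-null and Gapdh, Pgk1 and Pdha1 by -0.84, -0.89 and -0.56. Ldha and Hk1 rose in WT too. The split of calls over all genes moved with scaling in WT, from 37.4% higher among the called genes to 54.7% after rescaling to the same median, and in Cnot4-null from 60.5% to 39.1%, or 37.4% with quantile normalization. These scalings shifted the median of all genes by 0.37 (rescaled) and 0.25 (quantile) in WT and by -0.41 and -0.48 in Cnot4-null. The members' calls in WT stayed at 5 higher and 4 lower under both scalings, and those in Cnot4-null became 7 and 3. With only the libraries compared in the fit, the members in Cnot4-null were 6 higher and 0 lower, beside 16.9% and 7.94% of all genes.

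At LZ no member was called between genotypes by limma in either direction, beside 0.0692% of all genes called higher and 0.0252% called lower in Cnot4-null. At an unadjusted p under 0.05, the LZ difference held for 3 of the 10 members, Ldha, Ldhb and Pdha1, beside 1013 of the 15899 genes tested. At PD, 6 members were higher in Cnot4-null than in WT (Gapdhs, Gapdh, Pgk1, Ldhb, Pdha1 and Hk1) and 2 were lower (Pdha2 and Ldha), where 41.6% of all genes were called higher and 11.5% lower. Pgk2 and Ldhc were not called. This comparison shares the WT PD libraries with the stage comparison in WT, so a member low in WT PD enters both. The PD marker sums were lower too, at 989 and 477 FPKM in Cnot4-null PD against 1832 and 1820 in WT PD. Their part in the members' decreases was not tested. The median change over all tested genes was 0.66, and it shifted by -0.87 after rescaling to the same median and by -0.77 after quantile normalization, which turned the share of higher genes among those called from 78.3% to 36.9% and 41.0%. Relative to the median of all genes, the differences were 3.0 for Gapdhs, 2.86 for Ldhb, 2.77 for Gapdh, 2.18 for Pdha1, 1.91 for Pgk1, 0.91 for Hk1, -1.68 for Pgk2, -1.76 for Pdha2, -2.49 for Ldha and -2.63 for Ldhc. The directions of all 10 at PD were the same under both scalings, with 5 called higher under each and 2 called lower after quantile normalization or 4 after rescaling. Among those called higher, the difference after rescaling was 2.31 for Gapdhs and 2.29 for Ldhb, and that of Pdha1 was 1.75 with quantile normalization.

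The interaction of genotype and stage, which tests whether the genotype difference at PD was unlike that at LZ, called 5 members higher and none lower by limma, beside 26.0% and 3.97% of all genes. The members were Gapdh, Pgk1, Ldhb, Pdha1 and Hk1, all somatic. With a filter of mean FPKM of at least 5, the testis isoforms Gapdhs (higher, adjusted p = 0.0464) and Pdha2 (lower, adjusted p = 0.0486) were called too. For Gapdhs and Pdha2 the interaction was 2.91 ± 0.93 and -1.35 ± 0.43 with adjusted p of 0.0519 and 0.0520 by limma, and for Ldha it was -0.09 ± 0.46 (limma, adjusted p = 0.893), or -1.56 and called after rescaling to the same median (limma, adjusted p = 0.0326). The count was 3 without Cnot4-null LZ replicate 2 and also without WT PD replicate 2, since Pdha1 and Hk1 were not called then, and between 3 and 6 over all libraries left out in turn. Hk1 alone was lost without either WT LZ library, Cnot4-null LZ replicate 1 or WT PD replicate 1 (adjusted p of 0.0970, 0.0505, 0.0975 and 0.107), and Pdha2 was called without Cnot4-null PD replicate 1 (0.00564) or 2 (0.0463). Rescaling to the same median shifted the median interaction of all genes by -0.94 and quantile normalization by -0.77, and higher genes went from 86.8% of those called to 29.8% and 44.1%. The members then counted 3 higher and 3 lower, or 3 and 1, with Gapdh, Pgk1 and Ldhb higher in both. Pdha2 was lower in both (-2.82, adjusted p = 0.00409 rescaled, and -1.08, 0.0349 with quantile normalization), and Pgk2 was lower when rescaled (-2.77, 0.0256). The Pgk1 interaction was 1.10 rescaled and 1.43 with quantile normalization, and that of Gapdh was 2.29 rescaled. For Gapdhs it was 1.53 (limma, adjusted p = 0.198) rescaled and 2.41 (limma, adjusted p = 0.0749) with quantile normalization. The interaction of Hk1 was then 0.29 (adjusted p = 0.609) rescaled and 1.17 (0.184) with quantile normalization, that of Pdha1 was 1.27 (0.0559) and 0.92 (0.188), and the sign for Ldha turned to 0.22 with quantile normalization.

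**Figure D3:**
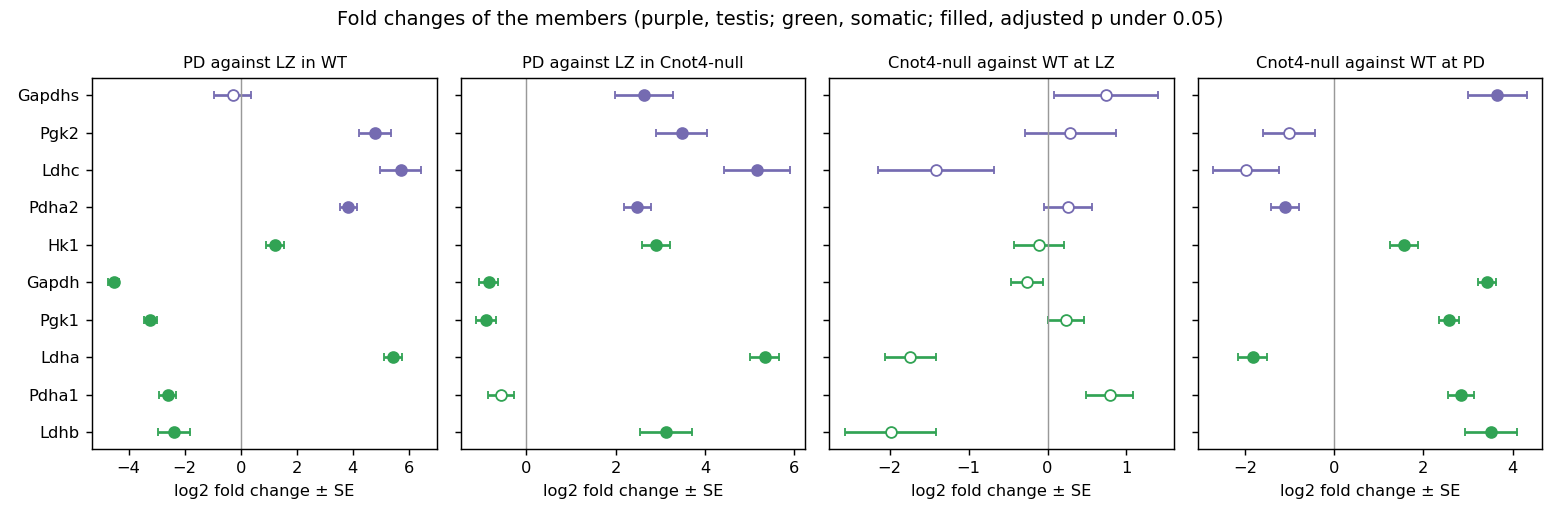
Log2 fold changes (x axis, on the FPKM + 1 scale) of the 10 members in 4 comparisons, with standard errors from limma as bars, testis isoforms in purple, somatic isoforms in green and filled points for adjusted p under 0.05. At PD, Gapdhs (3.66) stands with the somatic Gapdh (3.43) and Ldhb (3.52), while Ldha (-1.83) stands with the testis isoforms Ldhc (-1.96) and Pdha2 (-1.10).

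The FPKM ratio of testis to somatic isoform within a library is not changed by a factor common to all its genes, whereas the log2 ratio of (FPKM + 1) values can be. With 2 libraries against 2, the exact permutation test (two-sided) cannot give a p below 0.333, so the ratios are given as values. Pgk2 was 0.165 and 0.425 times Pgk1 at LZ and 118 and 94.0 at PD in WT, against 0.453 and 0.176 at LZ and 11.7 and 3.66 at PD in Cnot4-null. The switch from Pgk1 to Pgk2 was thus present in both genotypes, with a log2 ratio (FPKM + 1) of 6.23 ± 0.17 (SD, n = 2) in WT PD and 2.65 ± 1.16 in Cnot4-null PD. Pdha2 was 1.39 and 2.39 times Pdha1 at LZ and 351 and 1483 at PD in WT, against 1.31 and 1.11 at LZ and 17.3 and 6.82 at PD in Cnot4-null. The very high WT PD ratios have Pdha1 values under 1 FPKM as their denominator, and on the log2 scale the means were 7.23 ± 0.37 (SD, n = 2) in WT PD and 3.30 ± 0.91 in Cnot4-null PD. For both pairs the Cnot4-null PD libraries were below WT PD and above LZ without overlap, and the difference between genotypes at PD was -3.58 for Pgk (-2.35 with quantile normalization) and -3.94 for Pdha (-2.40 with a pseudocount of 5, -5.56 with 0.1 and -2.56 with quantile normalization).

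Gapdhs was 0.0265 and 0.0590 times Gapdh at LZ and 0.886 and 0.770 at PD in WT, against 0.153 and 0.0453 at LZ and 1.88 and 0.520 at PD in Cnot4-null. The log2 ratio was -0.24 ± 0.12 (SD, n = 2) in WT PD and -0.02 ± 1.30 in Cnot4-null PD, so the PD groups overlapped. In WT the higher ratio at PD came with less Gapdh, since the Gapdhs values of the stages overlapped, whereas in Cnot4-null PD both genes were above WT PD. Without Cnot4-null PD replicate 1, the genotype difference of this ratio at PD turned from 0.23 to -0.69.

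Ldhc was 7.69 and 8.63 times Ldha at LZ and 10.6 and 8.61 at PD in WT, against 24.9 and 4.98 at LZ and 11.5 and 6.61 at PD in Cnot4-null. The neighbours thus kept a similar ratio while both levels changed, with group means of the log2 ratio between 2.97 and 3.29, and the duplicates of Cnot4-null LZ differed more than the groups did. Ldhc was 8.87 and 13.5 times Ldhb at LZ and 4278 and 3601 at PD in WT, against 17.4 and 25.9 at LZ and 137 and 30.8 at PD in Cnot4-null. Of the summed FPKM of Ldha, Ldhb and Ldhc, Ldhb made 9.07% and 6.23% at LZ and 0.0214% and 0.0249% at PD in WT, against 5.25% and 3.11% at LZ and 0.669% and 2.74% at PD in Cnot4-null. Ldhb was therefore a minor transcript of the family in every library, and it was rarest in WT PD.

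**Figure D4:**
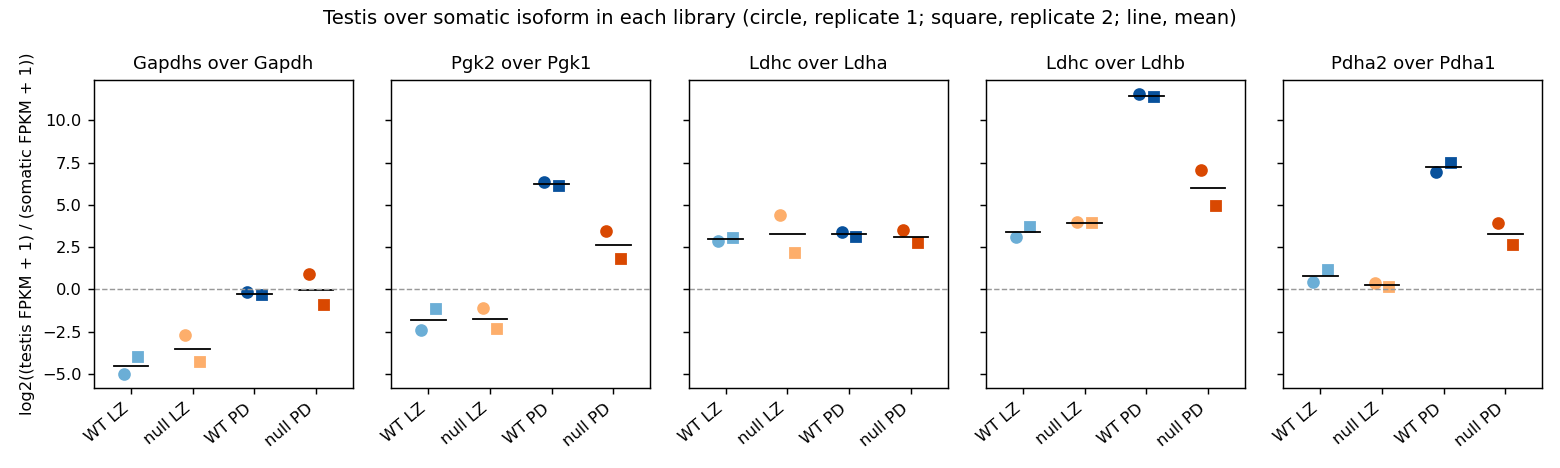
Log2 ratio of testis to somatic isoform, (testis FPKM + 1) over (somatic FPKM + 1), for 5 pairs in each library, with replicate 1 as a circle, replicate 2 as a square and the mean as a line. Pgk2 over Pgk1, Ldhc over Ldhb and Pdha2 over Pdha1 have their highest values in WT PD (means 6.23, 11.5 and 7.23), while the group means of Ldhc over Ldha lie between 2.97 and 3.29 and its Cnot4-null LZ libraries stand at 4.42 and 2.17.

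Summed over the members, the testis isoforms made 36.9% and 47.5% of the FPKM of the 10 genes at LZ and 91.5% and 89.8% at PD in WT, against 45.9% and 20% at LZ and 89.9% and 78.4% at PD in Cnot4-null. Ldhc made most of these sums, and with Ldhc and Ldha left out the shares were 7.69% and 12.3% at LZ and 95.0% and 95.3% at PD in WT, against 20.3% and 10.6% at LZ and 74.2% and 47.0% at PD in Cnot4-null. Cnot4-null PD was then between LZ and WT PD, and its duplicates stood further apart than those of WT PD. All 4 testis isoforms and Ldha were higher in replicate 1 than in replicate 2 of Cnot4-null PD, by 1.79-fold for Ldha up to 3.11-fold for Ldhc, while Gapdh, Pgk1, Ldhb, Pdha1 and Hk1 were higher in replicate 2, by 1.34-fold to 1.74-fold. In WT PD the duplicates differed by at most 1.29-fold for every member other than Pdha1.

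Of 41 other genes of glucose uptake, glycolysis and pyruvate use, 39 had a row, 34 were tested, and 17 were higher and 5 lower in Cnot4-null PD than in WT PD (median change 0.98), beside 41.6% and 11.5% of all genes tested and their median of 0.66. Pdk4, among the 17, passed the filter only through the Cnot4-null PD libraries. Eno1, an enolase of most tissues, had 7.58 and 12.4 FPKM at LZ and 0.000119 and 0.000113 at PD in WT, against 8.25 and 8.96 at LZ and 28.6 and 12.1 at PD in Cnot4-null. Like Gapdh and Pgk1 it was lowest in WT PD, with a difference of 4.30 ± 0.41 at PD (limma, adjusted p = 0.000341). WT PD values of Eno1 this near to 0 may not measure a level, so the size of that difference is uncertain. Pkm2, a pyruvate kinase, differed by 3.97 ± 0.26 (limma, adjusted p = 0.00014), Pdk3, an X-linked kinase that inhibits pyruvate dehydrogenase, by 3.62 ± 0.22 (limma, adjusted p = 0.000109), and Aldoart2, a testis aldolase retrocopy, by 3.24 ± 0.70 (limma, adjusted p = 0.00819). Aldoart2 resembled Gapdhs, with 3.46 and 3.17 FPKM in WT PD against 45.8 and 34.3 in Cnot4-null PD. The list had 2 lower without either WT PD library, against 5. The adjusted p of Aldoart2 was between 0.0514 and 0.0589 without either WT PD library or either Cnot4-null PD library.

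The largest called decreases at PD in that list were those of Slc2a3, Ldhal6b, Dlat and Pfkp. Slc2a3, a glucose transporter, had 688 and 702 FPKM in WT PD against 243 and 124 in Cnot4-null PD, and fell by 1.99 ± 0.34 (limma, adjusted p = 0.00295). Ldhal6b, a testis lactate dehydrogenase retrocopy, fell by 1.45 ± 0.46 (limma, adjusted p = 0.0326), and the changes were -1.38 ± 0.23 for Dlat (limma, adjusted p = 0.00265) and -1.36 ± 0.28 for Pfkp (limma, adjusted p = 0.00646). Ldhal6b was not called when any 1 of 5 libraries was left out, with adjusted p of 0.0608 (WT LZ replicate 1), 0.0604 (WT LZ replicate 2), 0.139 (WT PD replicate 1), 0.116 (WT PD replicate 2) and 0.173 (Cnot4-null PD replicate 2). Its change was -0.78 in the last of these and between -1.51 and -1.39 in the others, and Pfkp was not called without WT PD replicate 1 (0.0540) or 2 (0.0567). Pgam2, the most abundant of the list, had 1544 and 1317 FPKM in WT PD against 1318 and 513 in Cnot4-null PD, a difference of -0.79 ± 0.78 (limma, adjusted p = 0.407). The Pgam2 difference was -2.23 and called after rescaling to the same median (limma, adjusted p = 0.0351), and it ranged from -1.47 to -0.11 with each library left out. From LZ to PD in WT, 13 of the 34 were higher and 13 lower, beside 21.6% and 36.2% of all genes.

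Gapdh is widely used as a reference gene, and its level in these libraries was compared with 15 others of that use. In Cnot4-null PD against WT PD, 8 of the 15 were higher and 1 was lower by limma, beside 41.6% and 11.5% of all genes, with a median change of 1.42, and 2 were lower without either Cnot4-null PD library. Tubb5 (4.58 ± 0.44, adjusted p = 0.000336), B2m (4.29 ± 0.52, adjusted p = 0.000787) and Hprt (3.85 ± 0.30, adjusted p = 0.000196) had larger increases than Gapdh, Tbp fell by 1.15 ± 0.17 (adjusted p = 0.00167), and Ppia (-0.53 ± 0.28, adjusted p = 0.148) and Sdha (-0.21 ± 0.19, adjusted p = 0.363) were not called. Ppia and Sdha were called lower after rescaling to the same median (adjusted p = 0.00123 and 0.000546), Ppia also without Cnot4-null PD replicate 1 (0.00975) and Sdha without Cnot4-null PD replicate 2 (0.0497). Gapdh spanned 8.22 to 237 FPKM over the 8 libraries, so a value divided by Gapdh would carry this range.

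Pgk1 and Pdha1 were set beside the other X-linked genes, of which 648 were tested. The median change of these genes from LZ to PD was -1.77 in WT and -0.35 in Cnot4-null, against -0.31 and 0.17 for 14544 autosomal genes. Pgk1 (-3.23) and Pdha1 (-2.61) were below both medians in WT, as was the autosomal Gapdh (-4.53). At PD, 74.4% of X-linked genes were called higher in Cnot4-null, with a median of 1.95, and 40.5% of autosomal genes, with a median of 0.61. For 6 further X-linked genes with an autosomal testis copy (most abundant, Rpl10), the sums were 1001 and 902 FPKM at LZ and 31.9 and 19.5 at PD in WT, against 1196 and 928 at LZ and 573 and 801 at PD in Cnot4-null, and all 6 were higher in Cnot4-null PD, or 4 without either WT PD library and 5 without Cnot4-null PD replicate 2. Their autosomal copies (most abundant, Cetn1) summed to 171 and 202 FPKM at LZ and 3045 and 2720 at PD in WT, against 220 and 162 at LZ and 2109 and 697 at PD in Cnot4-null, and none of the 6 was called at PD by limma, while 3 were called lower without Cnot4-null PD replicate 1. At PD the sum of the autosomal copies was carried mostly by Cetn1. At LZ it was carried mostly by Rpl10l, with 94.2 and 115 FPKM in WT and 119 and 111 in Cnot4-null. Among these copies, Utp14b had 6.89 and 7.18 FPKM in WT PD against 7.31 and 7.76 in Cnot4-null PD, and Rbmxl2 had 18.9 and 17.1 against 36.3 and 22.8, so not every copy had the order of groups seen for Pgk2.

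Among the members, Gapdh and Pgk1 had the most similar profiles over the 8 libraries (Pearson r = 0.992 of log2 values), followed by Pgk2 and Pdha2 (0.987) and by Ldhc and Ldha (0.977). Gapdhs correlated at most at 0.705 with any other member, namely Ldhb. These coefficients mostly reflect the differences between 4 groups of 2 libraries and are given as descriptions. Over 9338 other genes with a mean of at least 5 FPKM, the profiles most like Pgk2 were those of Bag5 (r = 0.997), Rabepk (0.997) and Efcab10 (0.997), and those most like Ldhc were 1700010B08Rik (0.999) and Lypd4 (0.999). The closest to Gapdh were Cecr2, Hdac6 and Crlf3 (each 0.998), and the closest to Pgk1 were Spin1, BC016423 and Alg10b (each 0.998). For Gapdhs, added after its values were seen, they were Iqcf3 (0.995), 1700003F17Rik (0.993) and 1700016D06Rik (0.992). Iqcf3 had 9.90 and 7.79 FPKM in WT PD against 186 and 73.3 in Cnot4-null PD, close to the values of Gapdhs.

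Each group held 2 libraries, described as biological replicates, so the spread within a group rests on a single difference for each member. The Cnot4-null PD libraries had higher marker sums of spermatids, Leydig cells, matrix cells and spermatogonia than WT PD. Their duplicates differed in opposite directions for the testis isoforms with Ldha and for the other somatic isoforms. Spermatid and spermatogonial markers were also found at LZ. From LZ to PD in WT, 7 of 8 spermatogonial and 3 of 8 spermatid markers were called lower by limma, beside 36.2% of all genes. The paper describes a Hoechst sort with a purity check by immunofluorescence, which was not analysed here, and an effect of Cnot4 on the members and a different mix of cells cannot be told apart with these libraries. Gapdh, Pgk1 and Ldha have near-identical copies in the genome, and unique mapping leaves their levels less certain. Protein levels and enzyme activity of the members were not analysed here.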

How the data were processed

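RNA-seq was analysed in 8 libraries. Per the labels and methods, the authors aligned reads to mm9 with TopHat2 2.1.1, kept uniquely mapped reads and deposited FPKM per gene symbol from Cufflinks 2.2.1; the labels describe a total RNA kit with Trizol extraction, and the methods Smart-Seq2 from sorted cells. The files give no counts, and the low values gave no firm relative depth (8.43% to 11.7% of low genes shared a ratio to WT LZ replicate 1); the read totals that the authors list in a supplement were not used here. The 15899 of 23235 genes that passed 1 FPKM in any library were tested on log2(FPKM + 1) with limma 3.58.1 (R 4.3.3, eBayes with trend, all 8 libraries, group only), with Benjamini-Hochberg adjustment over all genes of a contrast and a threshold of 0.05, and the fit was tested on simulated data. Isoform ratios were computed per library in Python 3.11.15 (pandas 2.3.3, scipy 1.17.1). Named were all members; of the other glycolysis genes the 4 largest called rises and falls at PD and the 2 most abundant; of the reference genes the 3 largest rises and falls; of each marker list the most abundant gene; and, for Pgk2, Ldhc, Gapdh and Pgk1, the 3 genes of highest Pearson r; some genes under these rules are not reported here. The methods call the duplicates biological replicates. Members and lists were chosen with earlier results of these data known. Positions are from GENCODE vM1 (mm9), and promoters from RefSeq (GRCm38.p6) matched all 10 members. No library repeated another's values. Alternatives were other filters, pseudocounts and scalings, other fits, and leaving out each library.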

Additional observations from a re-analysis of the deposited data

Results flagged for a closer look

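For 5 members the difference between Cnot4-null and WT was not the same at PD as at LZ, by the limma interaction over all genes. The difference between stages of the log2 change with genotype was 3.69 for Gapdh (adjusted p = 0.000938), 2.34 for Pgk1 (adjusted p = 0.0031), 5.51 for Ldhb (adjusted p = 0.00426), 2.05 for Pdha1 (adjusted p = 0.0124) and 1.68 for Hk1 (adjusted p = 0.0303). For Ldhb, part of the value comes from LZ, where the genotype difference was -1.99 ± 0.58 and the Cnot4-null duplicates had 8.43 and 1.36 FPKM. In each of the 5, the Cnot4-null PD libraries were above WT PD, by more than the size of the difference at LZ. These are the libraries with the high Leydig cell and spermatid marker sums, and the part of those cells was not tested. After rescaling to the same median, Gapdh was 2.29 and Pgk1 1.10, and with quantile normalization Pgk1 was 1.43, all called. The Hk1 value was 0.29 (adjusted p = 0.609) and the Pdha1 value 1.27 (0.0559) after rescaling to the same median, and 1.17 (0.184) and 0.92 (0.188) with quantile normalization. Hk1 was not called when any 1 of 6 of the 8 libraries was left out or with no filter on low values (0.0709), Pdha1 was 0.77 (0.0638) with a pseudocount of 5, and it was not called without Cnot4-null LZ replicate 2 or WT PD replicate 2.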

How the results depend on the processing

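Most values kept their direction, and those that did not are listed with the reported value first. Log2 changes that reversed were Gapdhs from LZ to PD in WT (-0.28) at 0.22 with quantile normalization and 0.52 with libraries rescaled to a common median, and the Ldha interaction (-0.09) at 0.0404 with a pseudocount of 0.1 and 0.22 with quantile normalization. With each library left out, ranges that crossed 0 were Gapdhs in WT -0.87 to 0.31, the LZ genotype difference of Gapdhs -0.0130 to 1.5, of Pgk2 -0.36 to 0.94 and of Hk1 -0.31 to 0.10, and the interaction of Ldhc -1.56 to 0.46 and of Ldha -0.51 to 0.33. Members called ranged over 7 to 9 (PD against LZ in WT), 6 to 9 (in Cnot4-null), 0 to 0 (genotype at LZ), 6 to 9 (genotype at PD) and 3 to 6 (interaction). With the replicate number as a replicate block the counts were 9, 9, 0, 9 and 5. Same-numbered libraries share only a number, and after group means were removed their correlations ran from -0.0651 to 0.194, so no pairing was used. Log2 ratios that moved were Pgk2 over Pgk1 in WT (8.01) at 6.56 with a pseudocount of 5 and 7.07 with quantile normalization, and at PD (-3.58) at -2.71 and -2.35; Ldhc over Ldha in WT (0.28) at 0.47 and 0.0660; Ldhc over Ldhb in WT (8.09) at 8.44 with a pseudocount of 0.1, 7.26 with 5 and 6.96 with quantile normalization, at LZ (0.57) at 0.91 with 0.1 and at PD (-5.48) at -4.35 with quantile normalization; Pdha2 over Pdha1 in WT (6.45) at 8.12, 4.69, 5.53 and, rescaled, 7.07, and at PD (-3.94) at -5.56, -2.40 and -2.56. With a pseudocount of 5, ratios that reversed were Pgk2 over Pgk1 at LZ (0.06) at -0.00887, Ldhc over Ldha in Cnot4-null (-0.18) at 0.33 and at LZ (0.32) at -0.0162, and Ldhc over Ldhb at LZ at -0.0541. With each library left out, ratios that crossed 0 were Gapdhs over Gapdh at PD -0.69 to 1.14, Pgk2 over Pgk1 at LZ -0.57 to 0.69, and Ldhc over Ldha in Cnot4-null -1.31 to 0.95, at LZ -0.81 to 1.45 and at PD -0.54 to 0.26.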
